A study of Mus musculus with 12 samples.

Results

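The insulin and insulin-like growth factor (IGF) axis of the liver was followed through 10 genes, taken by symbol from the deposited Ribo-seq table of 25033 entries. The genes are Igf1, Igfals, Igfbp1, Igfbp2, Igfbp4, Ghr, Insr, Irs1, Irs2 and Foxo1, and all 10 were found. Ribo-seq sequences the RNA pieces that ribosomes shield from nuclease, so that a gene's read count stands for the ribosomes found on it. The livers came from male C57BL/6 mice, 16 weeks old, that had eaten for 8 weeks either a high-fat diet (HFD group, 3 libraries) or a high-fat diet supplemented with lycopene, the red carotenoid of tomato (LYC group, 3 libraries). Both groups were thus on the high-fat diet, and the labels name no genetic change. Lycopene is named in the titles of the LYC samples, while their treatment field names only the high-fat diet. The comparison asked which of these genes carried more or fewer footprints when lycopene was added.

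The liver is the main source of circulating IGF1. Growth hormone binds its receptor, the product of Ghr, and drives transcription of Igf1 and Igfals through STAT5 factors. IGF1 circulates mostly in a complex with a binding protein and the acid-labile subunit that Igfals encodes, while the smaller binding proteins carry or withhold the rest. Insulin acts through its receptor, the product of Insr, whose tyrosine kinase recruits the adaptors IRS1 and IRS2. The signal then runs through PI3K and AKT to the transcription factor FOXO1, which AKT keeps out of the nucleus. In the fasted liver FOXO1 is nuclear and raises genes such as Irs2, Igfbp1 and Pck1.

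The deposited values are RPKM, reads scaled to gene length and to the size of the library. They rise in steps of 1 read within a library, from which the reads behind each value were recovered. The 6 libraries held between 311050 and 4405591 reads. A step on a gene of 1 kb came to 0.227 to 1.20 RPKM in HFD and to 2.43 to 3.21 RPKM in LYC, so a low gene was resolved more coarsely in LYC. The groups were compared with limma (moderated test, two-sided) on log2 of RPKM divided by a TMM factor, plus 1. TMM, edgeR's trimmed mean of M-values, scales the libraries to each other, and the added 1 makes the change of a low gene look smaller. Calls needed a log2 fold change beyond 1 in size together with p below 0.01 before adjustment. Adjusted p-values are by the Benjamini-Hochberg method, in the main fit over all 5703 genes tested. In another fit they are adjusted over the genes of that fit, and for ratios over the 4 ratios. Exact permutation p-values are unadjusted unless marked. The labels do not say that each library is a single mouse, and they mention pooling before library construction, so the p-values measure only the spread between these libraries. Fewer cells of a type and fewer footprints per cell cannot be told apart in whole liver.

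Against HFD, the mean deposited RPKM in LYC was 0.110 times as high for Irs2 and 0.305 times for Irs1, the 2 adaptors of the insulin receptor, 0.454 times for Igfals and 0.512 times for Igfbp2. Irs1 averaged 7.23 ± 2.67 RPKM in HFD and 2.20 ± 1.67 in LYC, and Irs2 averaged 3.64 ± 1.41 and 0.401 ± 0.0629 (SD, n = 3 each). Ghr averaged 108 ± 20.0 and 65.1 ± 4.96, and Igf1 went the other way, from 45.3 ± 2.24 to 54.4 ± 2.68. No gene of the axis was called by limma. Of the 10 genes, 9 had enough reads for the limma test, of which 0 were called higher and 0 lower. Among all genes tested, 6.91% were called higher and 6.45% lower. At an unadjusted p below 0.05 there were 2, beside 30.1% of all genes, Igf1 with more footprints in LYC and Irs1 with fewer, and neither had an adjusted p below 0.05. On the counting tests run on the recovered reads, edgeR's quasi-likelihood test, edgeR's exact test and DESeq2, 1 of the 9 was called, Irs1, lower in LYC. These tests called 7.14%, 8.57% and 6.86% of all genes lower. The tenth gene, Irs2, had 1 read in each LYC library and did not pass the filter on low reads. Irs1, with 1 read in LYC1, passed that filter only with the help of its HFD libraries. So did Igfals, with 3 reads in LYC2, and Igfbp1, with 3 in LYC1. The log2 fold changes of the 9 genes had a median of -0.32, beside -0.11 for all genes tested. With the trend on gene length removed the order turned, to -0.079 beside -0.12, and the medians were -0.19 beside -0.10 without LYC2 and -0.54 beside -0.15 without LYC3, both over 10 genes. Of the 9, 5 had a negative and 4 a positive value, against 55.4% negative values among all genes.

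**Figure D1:**
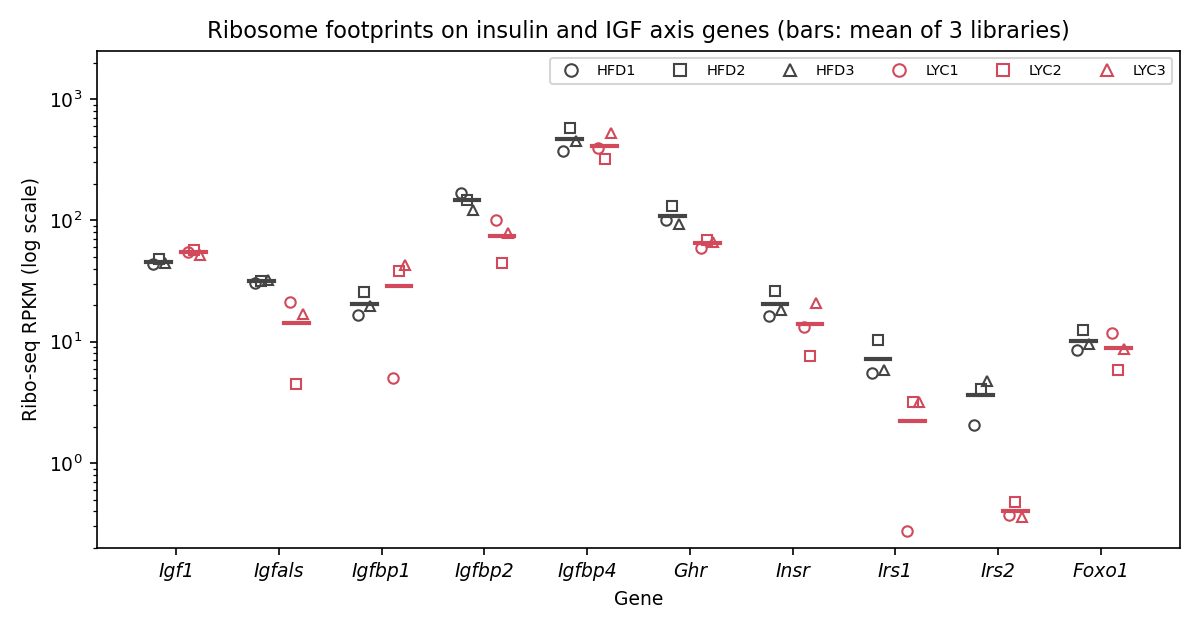
RPKM of the 10 genes (log axis) in the 3 HFD libraries (grey) and the 3 LYC libraries (red), with a bar at each group's mean. Igfbp4 lies highest in both groups, Irs2 lies lowest, and the LYC points of Igfals, Igfbp1 and Irs1 are spread further than those of HFD.

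The levels spanned a wide range. In HFD the mean RPKM fell from Igfbp4 (468 ± 105) through Igfbp2 (146 ± 23.7), Ghr (108 ± 20.0), Igf1 (45.3 ± 2.24), Igfals (31.5 ± 0.665), Igfbp1 (20.6 ± 4.51), Insr (20.3 ± 5.09), Foxo1 (10.2 ± 2.06) and Irs1 (7.23 ± 2.67) to Irs2 (3.64 ± 1.41; SD, n = 3 for each). Neighbours whose HFD libraries overlapped were Igfbp2 with Ghr, Igfbp1 with Insr, and Foxo1 with Irs1. In LYC the order differed at Igfbp1, which came before Igfals, and the libraries of these neighbours overlapped. The place of Igfbp2 depends on gene length: its RPKM steps fit a length of 930 bases, while the second deposited table implies 1327. Spread within a group was larger in LYC. The coefficient of variation was larger in LYC for 7 of the 10 genes, and for 79.6% of all genes tested. Its median over the 10 genes was 21.1% in HFD and 36.1% in LYC, and over all genes tested 19.9% and 39.6%.

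Igf1 (chromosome 10, 87858265 to 87937042, plus strand, GRCm38) encodes the circulating growth factor itself. Its RPKM was 43.5, 47.8 and 44.6 in HFD1, HFD2 and HFD3, and 55.2, 56.6 and 51.4 in LYC1, LYC2 and LYC3. Every LYC library lay above every HFD library, and the spread within either group was small. HFD1 to HFD3 gave 829, 1472 and 260 reads of Igf1, and LYC1 to LYC3 gave 152, 123 and 148. The mean was 1.20 times that of HFD on the deposited scale, and the log2 fold change on the TMM scale was 0.54 (SE 0.23, adjusted p = 0.155, limma). The value stayed positive under every alternative that was run, from 0.26 with scaling by total reads to 0.76 with the trend on gene length removed. Leaving out a library moved it between 0.45 and 0.59.

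Igfals (chromosome 17, 24865997 to 24882010, plus strand) encodes the acid-labile subunit, which holds IGF1 in the long-lived serum complex. Its RPKM was 30.7, 31.8 and 32.0 in HFD, the smallest coefficient of variation of the 10 genes in that group (2.11%), and 21.4, 4.51 and 17.0 in LYC. All 3 LYC libraries lay below HFD on the deposited scale, with LYC2 far under the other two. LYC2 held 3 reads of Igfals (exact Poisson 95% interval 0.619 to 8.77), where 18.1 were expected from the pooled HFD rate. LYC1 held 18 reads where 18.3 were expected, and after TMM scaling LYC1 (26.7) overlapped HFD2 (25.1). The log2 fold change was -1.04 (SE 0.54, adjusted p = 0.235, limma), and it was -0.34 without LYC2. Such intervals cover counting error only. On its LYC reads alone Igfals would not have passed the filter on low reads, so its log2 fold change is given as a value. Igfals is a textbook STAT5 target, and the promoter that opens at chr17:24877981-24878280 (GRCm38, plus strand, RefSeq) is shown because it holds 2 of the motifs that were looked for:
Igfals: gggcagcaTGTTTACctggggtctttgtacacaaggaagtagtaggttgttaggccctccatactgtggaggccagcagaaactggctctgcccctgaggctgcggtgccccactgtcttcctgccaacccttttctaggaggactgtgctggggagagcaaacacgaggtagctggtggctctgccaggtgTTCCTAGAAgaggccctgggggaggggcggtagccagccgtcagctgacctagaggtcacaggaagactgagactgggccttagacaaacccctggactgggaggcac
The capitals mark, from 5′ to 3′, the FOXO core TGTTTAC and the STAT5 motif TTCNNNGAA. Another of the 3 Igfals starts in RefSeq also had a TTCNNNGAA match.

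The motifs were sought on both strands in the 300 bases around each start, 250 before and 50 after, in the RefSeq promoters of GRCm38.p6. They were TGTTTAC, the short insulin response element form CAAAACA, and TTCNNNGAA. Of 32851 promoters, 3.65% held TGTTTAC, 6.28% CAAAACA and 8.30% TTCNNNGAA. Promoters were matched for 9 of the 10 genes, with 13 starts in all. Matches were found for 4 genes, Igfals, Igfbp1, Irs1 and Irs2. A match describes the letters in this window, and no site or binding was measured.

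Igfbp1 (chromosome 11, 7197782 to 7202546, plus strand) encodes a small binding protein that insulin represses within hours and that withholds IGF1 during fasting. Its RPKM was 16.7, 25.5 and 19.7 in HFD, and 5.00, 38.1 and 43.1 in LYC. LYC libraries lay on both sides of HFD: LYC1 was below every HFD library, while LYC2 and LYC3 were above. LYC1 held 3 reads where 9.04 were expected at the pooled HFD rate, LYC2 held 18 where 8.95 were expected, and LYC3 held 27 where 10.9 were expected. With limma the log2 fold change was 0.29 (SE 0.64, adjusted p = 0.795, limma). Without LYC1 it was 1.16 (adjusted p = 0.0521, limma) and met the limits of a call, at which 5.55% of all genes were called higher in that fit. Without LYC3 it was -0.22, so a single LYC library decided the direction of Igfbp1. Its promoter at chr11:7197537-7197836 (GRCm38, plus strand) carries the CAAAACA form, in capitals, between 108 and 102 bases before the start:
Igfbp1: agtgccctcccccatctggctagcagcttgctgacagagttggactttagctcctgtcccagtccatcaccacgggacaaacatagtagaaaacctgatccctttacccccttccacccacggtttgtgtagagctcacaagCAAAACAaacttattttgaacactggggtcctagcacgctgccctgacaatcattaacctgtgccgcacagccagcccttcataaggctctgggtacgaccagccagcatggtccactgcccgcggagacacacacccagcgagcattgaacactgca

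Igfbp2 (chromosome 1, 72824503 to 72852474, plus strand) encodes another small circulating binding protein. Its RPKM was 168, 148 and 121 in HFD and 101, 44.9 and 78.3 in LYC. Every LYC library was below every HFD library on the deposited scale. After TMM scaling LYC1 (126) passed HFD2 (117), and the groups overlapped. This came to a log2 fold change of -0.73 (SE 0.37, adjusted p = 0.223, limma), and -0.33 without LYC2. LYC2 held 13 reads of Igfbp2 where 38.1 were expected.

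Igfbp4 (chromosome 11, 99041244 to 99054392, plus strand), a binding protein made in abundance by liver, had an RPKM of 370, 579 and 453 in HFD and 392, 318 and 523 in LYC. Libraries of both groups overlapped. Its log2 fold change was 0.10 (SE 0.28, adjusted p = 0.851, limma), and it turned negative with scaling by total reads, where it was -0.19, without HFD1 (-0.031) and without LYC3 (-0.091). With 207 to 5345 reads per library it lay above 98.3% of the genes that had a read in any library.

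Ghr (chromosome 15, 3317760 to 3583492, minus strand) encodes the growth hormone receptor. Its RPKM was 100, 130 and 92.5 in HFD and 59.5, 69.1 and 66.7 in LYC. Each LYC library was below each HFD library, before and after TMM scaling. The LYC libraries held 94, 86 and 110 reads, where 126, 125 and 152 were expected at the pooled HFD rate. Its log2 fold change was -0.42 (SE 0.21, adjusted p = 0.218, limma). Leaving out a library kept it between -0.50 and -0.38, the narrowest such range of the 10 genes.

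Insr (chromosome 8, 3122061 to 3279617, minus strand) encodes the insulin receptor. Its RPKM was 16.4, 26.0 and 18.3 in HFD and 13.3, 7.56 and 20.8 in LYC. Libraries of both groups overlapped, with LYC2 the lowest library and LYC3 within the HFD range. Insr had a log2 fold change of -0.32 (SE 0.39, adjusted p = 0.618, limma). It was 0.11 without LYC2, so its sign rested on that library.

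Irs1 (chromosome 1, 82233101 to 82291416, minus strand) encodes the first of the 2 liver adaptors that the insulin and IGF1 receptors phosphorylate. Its RPKM was 5.48, 10.3 and 5.89 in HFD and 0.277, 3.16 and 3.18 in LYC. Every LYC library lay below every HFD library on both scales. The reads on Irs1 were 137, 416 and 45 across HFD, then 1, 9 and 12 across LYC, where 20.4, 20.2 and 24.5 would be expected from the pooled HFD rate. HFD2, the largest library, weighs most in that rate and was the highest for Irs1. The log2 fold change was -1.32 (SE 0.49, adjusted p = 0.116, limma). The 3 counting tests gave -1.45 (edgeR quasi-likelihood, adjusted p = 0.0405), -1.45 (edgeR exact, adjusted p = 0.0150) and -1.44 (DESeq2, adjusted p = 0.0338), all called. On its LYC reads alone Irs1 would not have passed the filter on low reads, so these calls are given as values. The size depended on LYC1, which held a single read: limma gave -0.76 without it, and the value for Igfals, -1.51, was then further from 0. Igfals was also further from 0 than Irs1 with 5 added in place of 1 (-0.81 and -0.66) and with the length trend removed (-1.17 and -1.08). The annotation places a protein-coding gene, Gm9747, on the opposite strand with 2822 exonic bases shared with Irs1, and the counting was not stated to use strand.

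Irs2 (chromosome 8, 10984681 to 11008458, minus strand) encodes the second adaptor, which is raised by FOXO1 in fasting and lowered by insulin. It had the fewest footprints of the 10 genes. Its RPKM was 2.05, 4.11 and 4.76 in HFD and 0.373, 0.473 and 0.357 in LYC, and every LYC library lay below every HFD library. Each LYC value stands for 1 read, whose exact Poisson 95% interval runs from 0.0253 to 5.57 reads. HFD1 to HFD3 gave 38, 123 and 27 reads of Irs2, and each LYC library gave 1, where 6.42, 6.35 and 7.71 were expected in LYC1, LYC2 and LYC3. The summed reads, 188 and 3, gave a ratio of LYC to HFD of 0.147 after TMM scaling, with an exact 95% interval of 0.0299 to 0.435 that covers counting error only. Without the filter on low reads limma gave a log2 fold change of -1.53 (SE 0.40, adjusted p = 0.0820, limma), which met the limits of a call. In that fit 4.57% of all genes were called lower. Irs2 also entered the test, and was called lower, when HFD1, LYC1, LYC2 or LYC3 was left out. In those fits 3.51%, 6.33%, 6.67% and 9.71% of all genes were called lower. A gene with so few reads in LYC can pass such a filter only through the HFD libraries, so these calls are given as values. A transcript on the opposite strand, 9530052E02Rik, shares 162 exonic bases with Irs2 and is listed at 0 in all 6 libraries. The promoters of both adaptors hold the CAAAACA form on the opposite strand, so it reads TGTTTTG in capitals here, 2 times at Irs1 (chr1:82291390-82291689) and once at Irs2 (chr8:11008880-11009179), both on the minus strand of GRCm38 and both shown because these genes had the lowest ratios of LYC to HFD in mean deposited RPKM among the 10:
Irs1: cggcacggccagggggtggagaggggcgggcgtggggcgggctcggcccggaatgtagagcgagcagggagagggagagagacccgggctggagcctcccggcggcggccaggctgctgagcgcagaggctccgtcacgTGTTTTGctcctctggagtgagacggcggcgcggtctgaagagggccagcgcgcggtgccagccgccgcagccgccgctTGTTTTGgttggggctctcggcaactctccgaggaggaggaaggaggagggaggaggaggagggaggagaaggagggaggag
Irs2: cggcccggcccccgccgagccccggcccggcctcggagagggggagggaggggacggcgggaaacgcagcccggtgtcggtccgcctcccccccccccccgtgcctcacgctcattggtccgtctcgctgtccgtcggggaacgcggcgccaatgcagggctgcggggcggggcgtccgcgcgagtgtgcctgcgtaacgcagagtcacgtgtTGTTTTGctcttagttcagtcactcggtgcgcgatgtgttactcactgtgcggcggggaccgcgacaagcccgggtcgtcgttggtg

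Foxo1 (chromosome 3, 52268336 to 52353221, plus strand) encodes the transcription factor that insulin inactivates through AKT. Its RPKM was 8.52, 12.5 and 9.50 in HFD and 11.9, 5.79 and 8.74 in LYC. Libraries of both groups overlapped. Foxo1 had a log2 fold change of 0.04 (SE 0.37, adjusted p = 0.952, limma), -0.22 with scaling by total reads, -0.035 without HFD1 and -0.25 without LYC1. An antisense gene, Gm20402, shares 674 exonic bases with Foxo1. Footprints on Foxo1 say nothing of where the protein was.

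**Figure D2:**
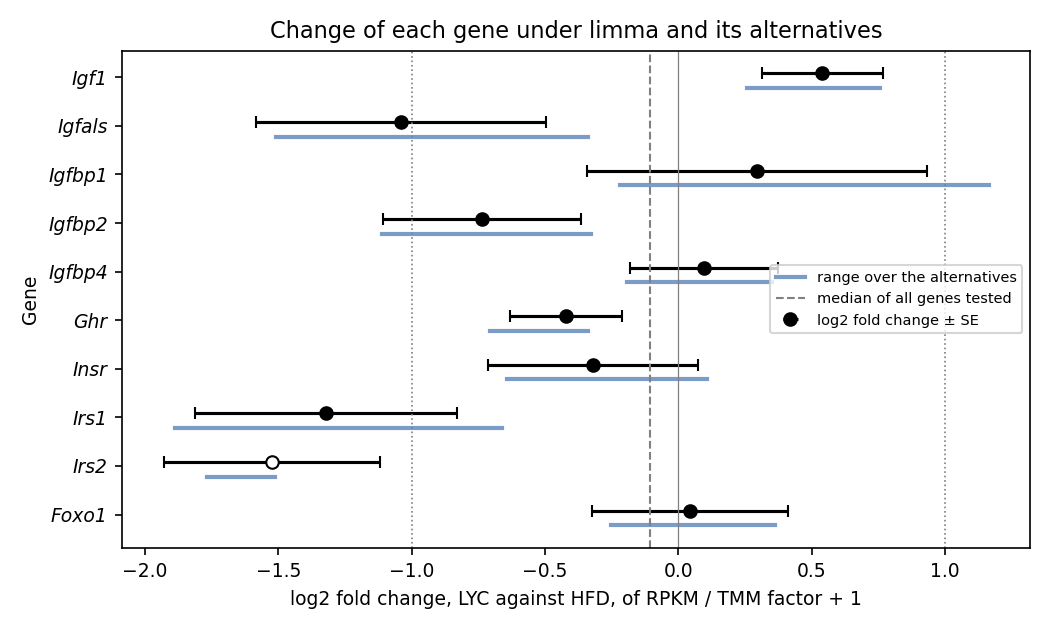
Log2 fold change of LYC against HFD for each gene, with its standard error (black; the open point of Irs2 is from the fit with no filter on low reads), and the range over the alternative fits (blue); dotted lines mark the call limit of 1 in size, and the dashed line marks the median of all genes tested, -0.11. The ranges of Igfbp1, Igfbp4, Insr and Foxo1 cross 0, and those of Igf1, Igfals, Igfbp2, Ghr, Irs1 and Irs2 do not. The range of Irs2 covers only the fit with no filter and the 4 fits with a library left out in which it was tested. Those of the other genes cover 11 alternatives and 6 fits with a library left out.

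After TMM scaling, 3 of the 9 genes tested did not overlap between the groups, Igf1 with LYC higher and Ghr and Irs1 with LYC lower. Groups stood apart in this way for 37.9% of all genes tested, and with LYC lower for 19.4%, so the count for the axis was near the background. Irs2, which was not tested, also did not overlap on this scale. On the deposited RPKM, 6 of the 10 genes did not overlap, these 4 with Igfals and Igfbp2, and 5 of the 6 were lower in LYC. On that scale 37.6% of all genes tested did not overlap, and 27.6% did so with LYC lower. An exact permutation test, two-sided, cannot go below p = 0.1 with 3 libraries against 3.

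**Figure D3:**
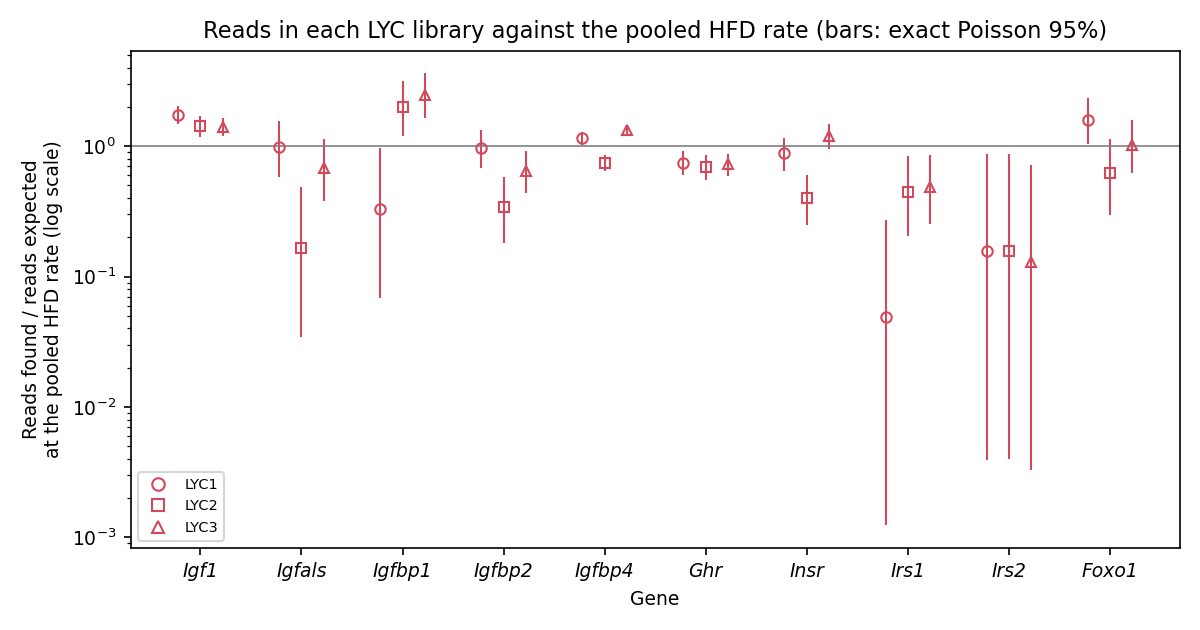
Reads found in each LYC library divided by those expected if the gene had the pooled HFD rate, after TMM scaling (log axis), with exact Poisson 95% intervals. Igf1 lies above 1 and Ghr, Irs1 and Irs2 lie below 1 in all 3 LYC libraries, as do Igfals and Igfbp2 with LYC1 close to 1, while Igfbp1, Igfbp4, Insr and Foxo1 lie on both sides.

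Ratios of genes within a library need no TMM factor, and 4 were compared, each as log2 of (RPKM + 1) over (RPKM + 1). The added 1 still ties the ratio of a low gene to the scale of its library. Ghr over Igf1 was 1.19, 1.43 and 1.04 in HFD and 0.11, 0.28 and 0.37 in LYC. Thus the receptor carried fewer footprints per footprint of its target in every LYC library, a difference of means of -0.96 (exact permutation p = 0.1, the smallest possible, adjusted over the 4 ratios p = 0.133). Igfals over Igf1 was -0.49, -0.58 and -0.47 in HFD and -1.33, -3.39 and -1.54 in LYC. This ratio also did not overlap, with LYC2 furthest away (difference -1.57, exact permutation adjusted p = 0.133). Irs2 over Insr was -2.51, -2.40 and -1.75 in HFD and -3.38, -2.54 and -4.00 in LYC. LYC2 came within 0.1 of HFD1 here, and Insr was low in LYC2 as well (difference -1.09, exact permutation adjusted p = 0.133). This ratio rested on the added 1, since Irs2 had 1 read per LYC library: the difference was -2.19 with 0.1 added and -0.20 with 5 added, where the groups overlapped (exact permutation p = 0.7). Igfbp1 over Igf1 was -1.33, -0.88 and -1.14 in HFD and -3.23, -0.56 and -0.25 in LYC, with LYC on both sides (difference -0.23, exact permutation p = 1).

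**Figure D4:**
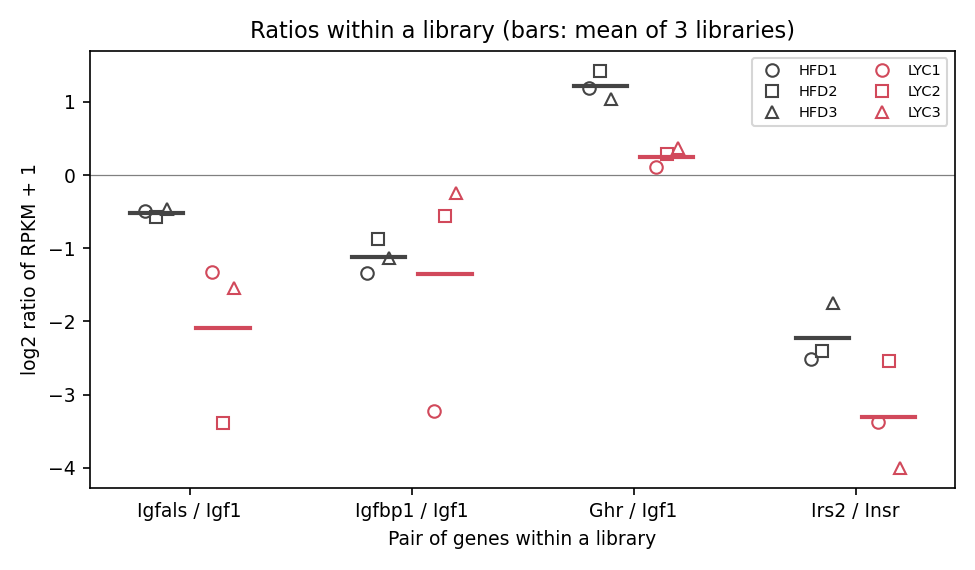
Log2 ratio of (RPKM + 1) of 2 genes within each library, for the 3 HFD libraries (grey) and the 3 LYC libraries (red), with a bar at each group's mean. Igfals, Ghr and Irs2 stand lower against their partners in all 3 LYC libraries, and Igfbp1 over Igf1 lies on both sides of HFD.

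Around these genes, 74 other genes of the pathway were looked up, all were found and 50 were tested. None was called higher and 2 were called lower. Ptprf, a receptor tyrosine phosphatase that can dephosphorylate the insulin receptor, had an RPKM of 34.1, 45.2 and 50.5 in HFD and 6.96, 7.57 and 18.4 in LYC. Every LYC library was below every HFD library (log2 fold change -1.72, SE 0.38, adjusted p = 0.0254, limma). Foxa2, a forkhead factor of hepatocytes that insulin signalling also acts on, had an RPKM of 20.1, 13.0 and 13.5 in HFD and 3.56, 6.01 and 2.27 in LYC (log2 fold change -1.54, SE 0.38, adjusted p = 0.0360, limma). It rested on 3, 4 and 2 reads in LYC, and Foxa2 was not called without HFD1 (-1.32) or HFD3 (-1.59). With so few LYC reads Foxa2 passed the filter on low reads through its HFD libraries, so this call is also given as a value. The 2 lower calls among 50 genes stand beside the 6.45% of all genes.

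The median log2 fold change of the 50 pathway genes was -0.37, and 36 were negative. Some of them, such as Akt1 (1, 4 and 11 reads in LYC), passed the filter on low reads only with the help of HFD libraries. The medians of these lists are therefore given as values. By role, the median was -0.66 for the 11 tested adaptors and brakes at the receptor, which hold Ptprf. It was -0.09 for 12 genes of the PI3K and AKT arm, with 0 called, and -0.11 for 11 genes of the mTOR arm, with 0 called. The 7 tested genes listed as FOXO family, which also hold the FOXA factors and FOXO cofactors, had a median of -1.10, and 1 of them, Foxa2, was called. The 5 negative genes of that group, among them Foxa1 (3, 0 and 5 reads in LYC), would not have passed the filter on their LYC reads alone. Growth hormone receptor signalling had a median of -0.54 over 6 genes, with 0 called. Of the ligands and binding proteins only Igfbp7 was tested, and of the receptors Igf2r and Prlr, with 0 called. With scaling by total reads the median of all genes moved from -0.11 to -0.36 and that of the pathway genes to -0.60, a gap between the medians of -0.24 beside -0.26 with TMM factors. The gap was smaller with the length trend removed (-0.13), with 5 added in place of 1 (-0.15), and without HFD3 (-0.093), HFD2 (-0.13) or LYC1 (-0.15).

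**Figure D5:**
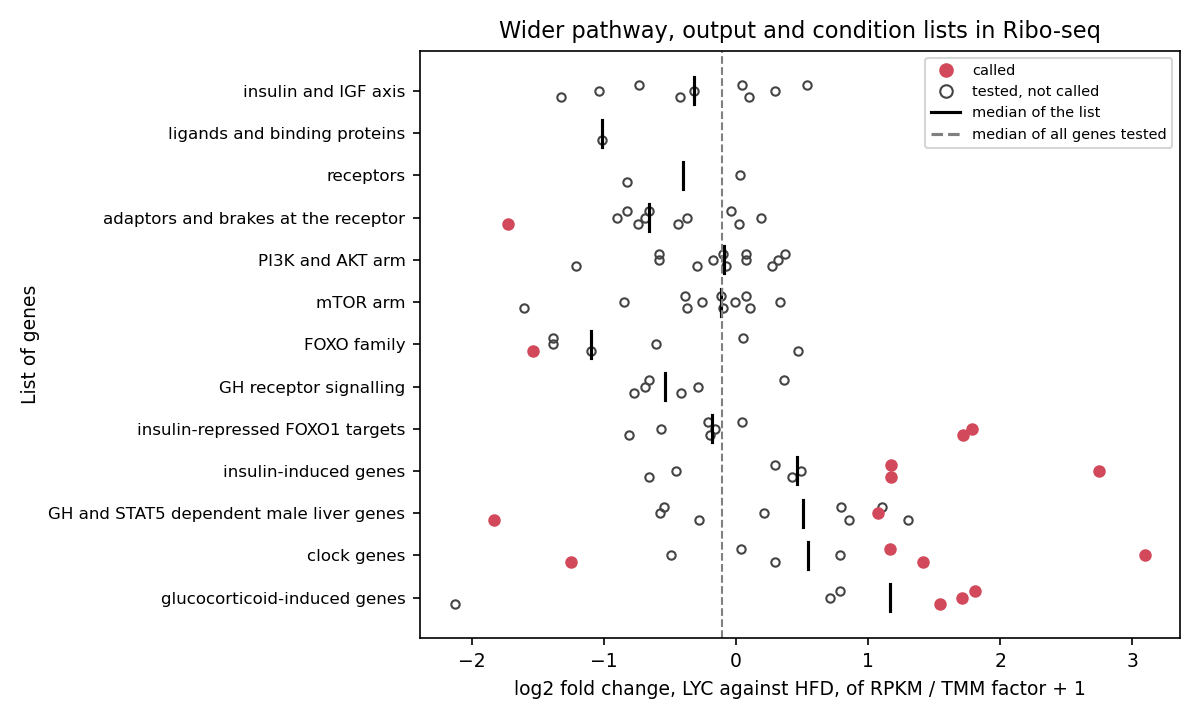
Log2 fold change of each tested gene of the axis, of the pathway by role, of 3 output lists and of 2 lists on clock and glucocorticoids (red, called; open, tested but not called), with each list's median (black) and the median of all genes tested (dashed, -0.11). The calls of the pathway lists lie on the left, at -1.72 and -1.54, and most calls of the output, clock and glucocorticoid lists lie on the right.

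Genes that textbook work places downstream of the axis were read on the same fit. For these lists and those that follow, the shares of all genes are 6.91% called higher and 6.45% called lower. Among 10 genes that insulin represses through FOXO1, 8 were tested, 2 were called higher and 0 lower, with a median of -0.18 (-0.0062 without LYC2). Pck1, the gluconeogenic enzyme PEPCK, rose from 253, 530 and 405 RPKM in HFD to 958, 1731 and 747 in LYC (log2 fold change 1.79, SE 0.34, adjusted p = 0.0153, limma). Angptl4, a secreted inhibitor of lipoprotein lipase, rose from 20.2, 23.6 and 17.6 to 56.0, 42.2 and 77.8 RPKM (1.72, SE 0.30, adjusted p = 0.0108, limma). G6pc, the other gluconeogenic enzyme of the list, overlapped between the groups, with a log2 fold change of -0.20 (adjusted p = 0.730, limma).

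Among 10 genes that insulin induces, 8 were tested. Of these, 3 were called higher, beside 6.91% of all genes, and 0 lower. Their median was 0.46 (0.18 with scaling by total reads, with 1 called). Thrsp, a lipogenic protein of hepatocytes, went from 129, 169 and 157 RPKM in HFD to 695, 811 and 1033 in LYC (log2 fold change 2.75, SE 0.23, adjusted p = 0.000272, limma). Elovl6, a fatty acid elongase, had a log2 fold change of 1.18 (adjusted p = 0.0387, limma). With scaling by total reads Elovl6 was at 0.90 and was not called, nor was it called without HFD1 (1.06), HFD3 (1.07), LYC1 (1.23) or LYC3 (0.96). All calls in these 2 lists, of genes that insulin represses and of genes that it induces, were higher in LYC.

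All 10 genes of a list that depends on growth hormone and STAT5 in male liver were tested. Mup3, a major urinary protein, was called higher (log2 fold change 1.07, SE 0.33, adjusted p = 0.0675, limma), just inside the limits. It was not called with scaling by total reads (0.78) or by DESeq2 size factors (1.05), with the length trend removed (0.70), with 0.1 added (1.07) or with no filter on low reads (1.07), nor without HFD2 (0.89), HFD3 (1.02), LYC1 (0.85) or LYC3 (1.12), and its reads are uncertain, since the Mup genes are near copies of each other. Elovl3, a fatty acid elongase, was called lower, from 197, 99.5 and 151 RPKM in HFD to 32.4, 25.7 and 41.3 in LYC (-1.83, SE 0.37, adjusted p = 0.0181, limma). The median of the list was 0.50, and it rested on single libraries: it was -0.20 without HFD2 and 0.081 without LYC1. It was 0.20 with the length trend removed and 0.22 with total reads.

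Several of these genes also follow the time of day and glucocorticoids, and 2 lists were read for that. Of 12 clock genes 8 were tested. Dbp, Tef and Per2 were called higher, with log2 fold changes of 3.10, 1.42 and 1.17, and Clock was called lower, at -1.25. Dbp (5, 54 and 7 reads in HFD) and Per2 (21, 67 and 8) passed the filter on low reads through their LYC libraries. Clock (5, 8 and 6 reads in LYC) passed it through its HFD libraries. The calls on Dbp, Per2 and Clock are therefore given as values. The call on Dbp held under every alternative that was run. With scaling by total reads Tef (1.15) and Per2 (0.96) were not called. Clock and Per2 were also not called with 5 added (-0.66 and 0.58), with no filter on low reads or with the replicate number as a block, nor Per2 with 0.1 added (1.54). Clock was also not called without HFD1 (-1.19), HFD2 (-1.24) or HFD3 (-1.36), Per2 without LYC1 (1.19) or LYC2 (0.99), and Tef without HFD1 (1.09), HFD3 (1.49), LYC2 (1.15) or LYC3 (1.42). Dbp, an output factor of the clock, had an RPKM of 1.09, 7.30 and 5.00 in HFD and 21.2, 51.7 and 31.8 in LYC. Arntl, the partner of CLOCK, had 58, 41 and 15 reads in HFD and 0 in each LYC library, and Npas2 had 33, 13 and 5 reads and then 0 in each. Of 10 glucocorticoid-induced genes 6 were tested and 3 were called higher, Tsc22d3 (1.81), Sds (1.71) and Tat (1.55). Of the 6, 5 were positive and 1 was negative, with a median of 1.17. The negative value, of Dusp1, was the largest in size, at -2.13 (adjusted p = 0.116, limma), and was not called. These values move with the groups in the same libraries as the axis genes, and their part in the axis values was not tested. The hours at which the livers were taken are not given in the sources used here.

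The livers showed the hepatocyte pattern of their label. Of 10 hepatocyte markers 9 were found and tested, 2 were called higher, Tat and Cps1, and their summed RPKM was 43229 to 46184 in HFD and 31114 to 39136 in LYC. The summed RPKM of 8 markers of sinusoidal endothelium was 85.7 to 118 in HFD and 35.0 to 162 in LYC, with 0 of 7 tested genes called. Within LYC their sum was lowest in LYC2, where Clec4g had an RPKM of 2.60, and highest in LYC3, where Clec4g had 53.0. The 8 Kupffer cell markers summed to 124 to 165 and 98.9 to 174, and the 8 stellate cell markers to 151 to 259 and 122 to 181, with 0 called in either list. The 5 cholangiocyte markers summed to 15.4 to 25.0 in HFD and 2.89 to 9.25 in LYC, none was tested, and Krt7, Krt19 and Epcam had 0 reads in LYC. In HFD1, HFD2 and HFD3 they had 7, 8 and 1 reads (Krt7), 3, 3 and 0 (Krt19), and 2, 8 and 0 (Epcam). With so few reads in HFD, 0 reads in the smaller LYC libraries cannot show a loss. The 5 blood genes summed to 632 to 1433 and 847 to 989, with 0 called. The part of these cells in the axis values was not tested.

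A second table, whose columns are labelled as RNA-seq, could not serve as a separate measure of the mRNA. Each of its 6 columns matched the reads of a Ribo-seq library: of the genes with at least 50 reads in either, 71.8% to 75.2% had counts within 5% of each other, against at most 9.13% for any other pairing. The LYC columns matched the Ribo-seq libraries of the same number, while the columns labelled HFD1, HFD2 and HFD3 matched Ribo-seq HFD2, HFD3 and HFD1. Igf1 had 152, 123 and 148 counts in the LYC columns of this table, the numbers of reads recovered for it above, and Irs2 had 1, 1 and 1. Read as a second count of the same libraries, it called 2 of the 10 genes, both lower, Irs1 (log2 fold change -1.43, adjusted p = 0.0378) and Irs2 (-2.83, adjusted p = 0.0143, edgeR quasi-likelihood test), where 7.33% of all genes were called lower. Irs1 and Irs2 passed the filter on low counts only with the help of the HFD columns, so these calls are given as values. With scaling by total counts 6 of the 10 were called lower, beside 46.6% of all genes. Footprints per mRNA were therefore not computed.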

How the data were processed

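The 3 HFD and 3 LYC Ribo-seq libraries of liver and 6 columns labelled RNA-seq were used. Per the paper's methods the authors used cutadapt and bowtie2 for cleaning, STAR for alignment to the mouse genome GRCm38/mm10 and FANSE2 for quantification, and they deposited RPKM values for Ribo-seq. The table labelled RNA-seq holds counts and RPKM, also deposited by the authors. Versions, annotation and read filters are not given in the sources used here. Columns of the authors' own comparisons were not used.

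Of the 25033 entries, 26 carried dates for names and 4 shared a name and were left out. Reads were recovered for the 15749 genes above 0, with the length that the second table implies for 11290 genes and a fitted length for 4459. Values within 0.05 of a whole number were taken as whole, and 74.4% to 76.2% of a library's values above 0 were whole at the table's length. TMM factors were computed on the genes that edgeR's filterByExpr kept. A gene that is low in either group can pass this filter through the libraries of the other. The main design tested limma on RPKM, with counting tests on recovered reads as alternatives. The paper gives p limits of 0.01 and 0.001, and the former was used. Expected reads took the summed HFD reads over the summed HFD totals, each total multiplied by its TMM factor. HFD2, the largest library, thus weighs most in the pooled HFD rate. Ratios were tested by exact permutation. The scripts were tested on simulated data.

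The 10 genes and all lists were chosen with earlier results of these data known. Each of the 10 genes is named, and of other lists the called genes and a few examples. A called gene of the insulin-induced list enters its counts and median but is not reported here by itself. Arntl, Npas2, Cish, Socs2, Igfbp3, Clec4g, Kdr, Stab1, Stab2, Dnase1l3, Oit3, Pecam1, Lyve1, Dusp1, Krt7, Krt19, Epcam, G6pc, Igfbp7, Igf2r and Prlr are named beyond that rule after their values were seen. Replicate numbers did not pair the libraries: deviations of equal numbers correlated at 0.108, 0.025 and 0.0024. Fits were made in R (4.3.3) by limma (version 3.58.1), DESeq2 (version 1.42.0) and edgeR (version 4.0.16), and the rest in Python (3.11.15) with scipy (version 1.17.1), pandas (version 2.3.3), matplotlib (version 3.10.9) and numpy (version 2.4.6).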

Additional observations from a re-analysis of the deposited data

How the results depend on the processing

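The count of axis genes called, 0 under limma, was 1 without a filter on low reads (Irs2), 1 under each of edgeR's quasi-likelihood test, edgeR's exact test and DESeq2 (Irs1), and 2 (Irs1 and Irs2) on the counts of the second table, an alternative added after the data were seen. Where a filter was used, Irs1 and Irs2 passed it only with the help of HFD libraries, so these calls are given as values. Leaving out a library gave 0 to 2. The pathway count of 2 was 0 at p below 0.001 and 1 to 6 with a library left out. Without LYC3 it was 6 of 55, all lower (Akt1, Akt1s1, Foxa2, Foxo4, Igfbp7 and Ptprf), where 9.71% of all genes were called lower. Without HFD1 or HFD3 it was 1. Akt1, with 1 and 4 reads in LYC1 and LYC2, and Foxo4, with 1 and 0, passed the filter without LYC3 through their HFD libraries. In the table labelled RNA-seq the count of 2 was 6, all lower, with scaling by total counts, where 46.6% of all genes were called lower, and 0 to 2 with a library left out. The ratio of Igfbp1 to Igf1 turned to 0.71 without LYC1 and ranged from -0.78 to 0.71 with a library left out. Igfbp4 turned to -0.19 with total reads, to -0.043 with the length trend removed and to between -0.091 and 0.35 with a library left out. Foxo1 turned to -0.22 with total reads and to between -0.25 and 0.36 with a library left out, Igfbp1 to between -0.22 and 1.16, and Insr to between -0.64 and 0.11. Shared replicate numbers did not pair the libraries, and a fit with replicate block left 0 axis genes and 3 pathway genes (Akt1s1, Foxa2 and Ptprf) called and Igf1 at 0.54 (adjusted p = 0.228, limma). With 394459 reads or fewer in LYC1 and LYC2, 1 read of Irs2 was worth 0.373 and 0.473 RPKM, which limits what can be said of its level.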

Other observations

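Of the 74 pathway genes, 24 had too few reads for the test, and 3 of them that act next to the axis are given here, chosen after their values were seen. Cish and Socs2, which STAT5 induces and which dampen growth hormone signalling, varied widely within HFD. The reads of Cish numbered 118, 23 and 13 across HFD1 to HFD3 and 1, 0 and 4 across LYC1 to LYC3, which is an RPKM of 14.4, 1.73 and 5.17 and then 0.841, 0 and 3.22. Socs2 had an RPKM of 6.47, 1.05 and 2.23 in HFD and 2.35, 0 and 2.25 in LYC. For both genes HFD1 was the highest library and the groups overlapped. Igfbp3, the main partner of IGF1 and the acid-labile subunit in serum, had 68, 43 and 10 reads across HFD, then 0, 2 and 2 across LYC, or 10.2, 4.00 and 4.91 RPKM and then 0, 2.63 and 1.99. Its LYC libraries lay below its HFD libraries, on few reads.

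Igfbp7, a secreted protein related to the binding proteins, was tested and was not called (log2 fold change -1.02, SE 0.68, adjusted p = 0.348, limma). Its RPKM was 62.6, 45.2 and 40.7 in HFD and 11.3, 8.61 and 69.3 in LYC. LYC3 was thus above every HFD library and the other two LYC libraries below. Within LYC, the sinusoidal endothelium markers Clec4g, Kdr, Stab1, Stab2, Dnase1l3 and Oit3 were likewise highest in LYC3 and lowest in LYC2. Pecam1 and Lyve1 of that list were lowest in LYC2 but highest in LYC1, and Pecam1 was below every HFD library in all LYC libraries. The part of these markers in the values of Igfbp7 was not tested.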
